A study of Homo sapiens with 6 samples.

Results

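E-cadherin, 5 claudins and 4 further proteins of epithelial cell contacts were followed at the RNA level in HCT116, an established human colorectal carcinoma cell line. The 10 genes were CDH1, OCLN, CLDN1, CLDN3, CLDN4, CLDN7, CLDN12, TJP1, F11R and EPCAM, named for their place in adherens and tight junctions and matched by symbol to 10 of the 61806 rows of the deposited gene table. RNA-seq was performed on 3 libraries labelled si-NC, the wildtype cells with a control small interfering RNA, and on 3 labelled si-STRIP2, in which STRIP2 was knocked down. STRIP2 encodes a scaffold component of STRIPAK, an assembly of a phosphatase with kinases. Cells of both groups grew in the same serum-containing medium, and the labels name no dose or time of transfection. Whether the 3 libraries per group derive from separate cultures is not stated, so the p-values measure only the spread between these libraries, which may be technical.

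Epithelial cells are joined by adherens junctions, in which E-cadherin (encoded by CDH1) binds E-cadherin of the neighbouring cell and, through catenins, the actin cytoskeleton. Above them lie tight junctions, belts of claudins and occludin that seal the space between cells or let chosen ions through, and that are tied to actin by cytoplasmic scaffolds such as ZO-1, the product of TJP1. F11R encodes the junctional adhesion molecule JAM-A. EPCAM is an adhesion glycoprotein of simple epithelia, abundant in colorectal cancer, that binds claudin-7. In cells that lose epithelial character, repressors such as SNAI1, SNAI2, ZEB1 and ZEB2 bind short E-box sequences in the CDH1 gene and lower its transcription.

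Total counts lay between 17184963 and 21721218 per library. STRIP2 itself was at 3.19, 3.77 and 3.81 FPKM (counts scaled to the exonic size of the gene and to the library total) in si-NC and at 2.71, 2.53 and 2.58 in si-STRIP2, a log2 fold change of -0.46 (SE 0.0826, edgeR adjusted p = 1.62e-05), so that 72.6% of its control level was left. Among 9 markers of colorectal epithelium, the keratins KRT8, KRT18 and KRT19 were between 122.20 and 197.94 FPKM in every library, whereas CDX1 was at 0 and VIL1 and LGALS4 were at or under 0.13 FPKM. Markers of other cell types were low in both groups. Over 8 fibroblast genes the summed level was 2.23 to 2.68 FPKM in si-NC and as low as 1.94 FPKM in si-STRIP2, nearly all of it COL1A1, with DCN, COL1A2 and THY1 at 0 FPKM in every library. The 7 leukocyte genes summed to at most 0.620 FPKM. The 6 endothelial genes summed to 0.380 to 0.470 FPKM in si-NC and 0.160 to 0.240 in si-STRIP2, most of it KDR, with CLEC14A at 0 in every library. The part of these markers in the results on junction genes was not tested.

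Promoter sequence, from RefSeq on GRCh38.p14, was matched for 7 of the 10 genes, with 12 annotated starts among them. The genes not matched were CDH1, F11R and EPCAM. The 250 bases before each start were searched on both strands for the E-box CAGGTG, the form bound by SNAI and ZEB proteins, for the AP-1 sequence TGACTCA or TGAGTCA, and for the grainyhead sequence AACCNGTT. An E-box was found at 4 of the 12 starts, in OCLN, TJP1 and CLDN7, where 17.5% of all 35116 promoters in the table hold it. The AP-1 sequence occurred before 1 start, that of CLDN4 (held by 1476 of all promoters), and the grainyhead sequence before none (1.49% of all promoters). The mean of each of the 7 genes searched was lower in si-STRIP2, those with an E-box and those without. For CDH1, F11R and EPCAM the presence of an E-box is not known here. The part of these sequences in the levels was not tested. The first 3 of the following stretches are shown because they hold the E-box, and the fourth, of CLDN4, because it holds the AP-1 sequence and no E-box. Each is written on the strand of the gene, with the E-box (CAGGTG or its reverse complement CACCTG) or the AP-1 sequence in capitals.
OCLN, chr5:69492297-69492546, plus strand: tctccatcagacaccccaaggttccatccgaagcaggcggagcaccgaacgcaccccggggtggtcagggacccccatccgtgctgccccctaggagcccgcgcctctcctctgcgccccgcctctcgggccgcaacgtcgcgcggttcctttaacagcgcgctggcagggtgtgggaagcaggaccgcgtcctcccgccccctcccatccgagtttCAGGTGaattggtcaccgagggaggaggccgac
TJP1, chr15:29969050-29969299, minus strand: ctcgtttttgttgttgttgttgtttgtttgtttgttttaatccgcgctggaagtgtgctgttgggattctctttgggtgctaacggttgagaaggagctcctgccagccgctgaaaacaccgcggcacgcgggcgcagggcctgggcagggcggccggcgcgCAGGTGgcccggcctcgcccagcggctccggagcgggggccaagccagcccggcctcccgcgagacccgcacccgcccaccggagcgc
CLDN7, chr17:7262479-7262728, minus strand: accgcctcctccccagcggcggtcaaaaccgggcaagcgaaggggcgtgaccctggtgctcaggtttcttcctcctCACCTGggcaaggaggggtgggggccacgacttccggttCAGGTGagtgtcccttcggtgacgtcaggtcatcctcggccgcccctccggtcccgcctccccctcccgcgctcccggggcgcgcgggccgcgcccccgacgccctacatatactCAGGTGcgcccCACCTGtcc
CLDN4, chr7:73830746-73830995, plus strand: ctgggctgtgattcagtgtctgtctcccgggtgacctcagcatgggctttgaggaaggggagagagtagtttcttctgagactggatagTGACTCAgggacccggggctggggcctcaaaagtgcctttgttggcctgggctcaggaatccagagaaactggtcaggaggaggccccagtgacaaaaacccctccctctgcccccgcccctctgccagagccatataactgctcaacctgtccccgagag
The OCLN E-box began 33 bases before the start shown, and the other annotated OCLN start had an E-box 133 bases before it. That of TJP1 began 88 bases before the start shown, and the 3 other TJP1 starts had none. CLDN7 had 4 E-boxes before this start, beginning 174, 135, 20 and 9 bases upstream, and 0.464% of all promoters had 3 or more. Its other annotated start had none. The OCLN, CLDN7 and CLDN4 stretches lie within the span the deposited table gives for these genes, before an internal start, and the TJP1 stretch lies outside its gene's span. These matches describe the letters only. Binding was not measured here.

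The mean level of each of the 10 genes was lower in si-STRIP2 cells by amounts that differed several-fold among them, from the barely detected CLDN1, at 27.3% of its control FPKM, through CDH1 and OCLN to a change of EPCAM and F11R that was near the spread of the libraries. Of the 9 genes with enough counts to be tested, 8 were called lower and 0 higher by edgeR's quasi-likelihood test at an adjusted p under 0.05, and the other, F11R, was not called. Over all 15687 genes tested, 54.8% were called in either direction, 27.0% lower and 27.8% higher. The 10 genes were chosen with earlier results of these data known, so their excess over these shares may in part come from that choice. The median log2 fold change of the 9 was -0.44, against 0.014 over all tested genes, and 0 of the 9 reached a 2-fold change. For 7 of the 9, the highest si-STRIP2 value in FPKM was under the lowest si-NC value, which was so for 28.7% of all tested genes. In bulk RNA, fewer cells that express a gene and less RNA per cell cannot be told apart.

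**Figure D1:**
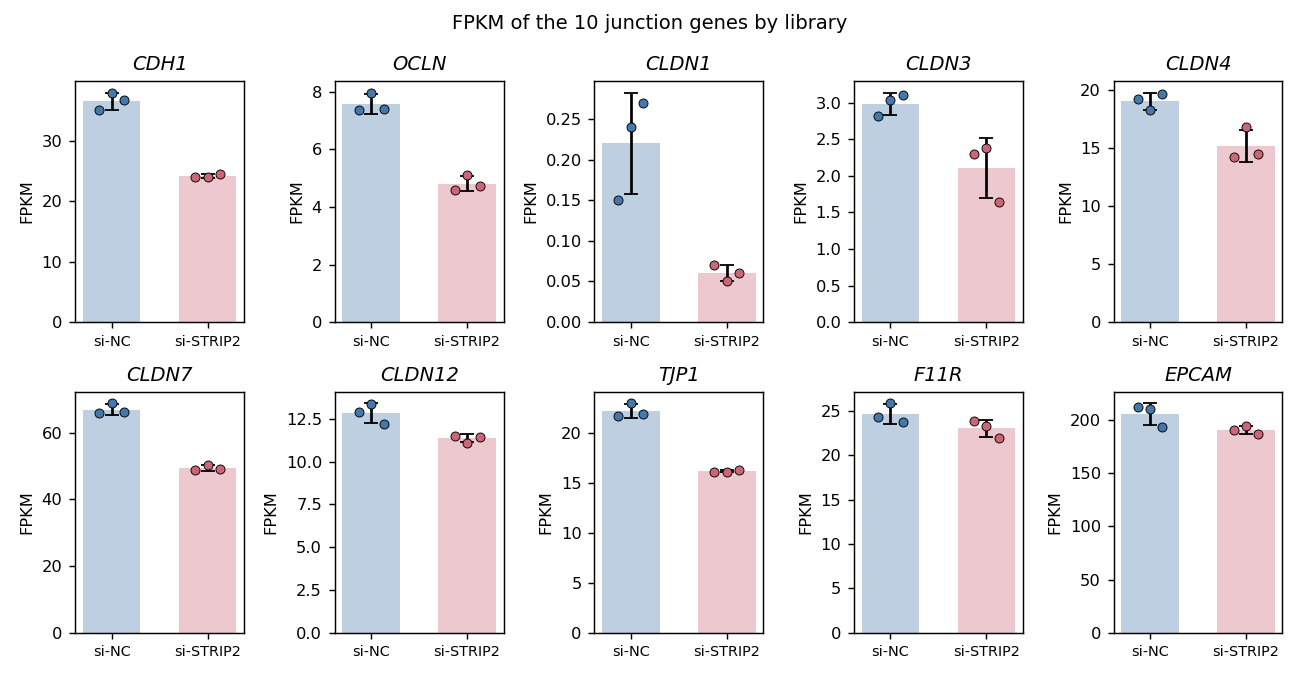
FPKM (y axis, from 0 in each panel) of CDH1, OCLN, CLDN1, CLDN3, CLDN4, CLDN7, CLDN12, TJP1, F11R and EPCAM in si-NC (blue) and si-STRIP2 (red) libraries. Points are the 3 libraries of a group, bars the mean and error bars the SD, and the groups overlap only for F11R and EPCAM.

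CDH1 (ENSG00000039068, chromosome 16, 68737292 to 68835537, plus strand) was at 35.10, 37.95 and 36.75 FPKM in si-NC and at 23.99, 24.01 and 24.55 FPKM in si-STRIP2. The 3 si-STRIP2 libraries lay close together and well below the lowest control. The mean fell from 36.6 ± 1.43 to 24.2 ± 0.318 FPKM (SD, n = 3), which is 66.1% of the control, with a log2 fold change of -0.60 (SE 0.0405, 95% confidence interval -0.682 to -0.518, edgeR adjusted p = 1.57e-14). Only 8.55% of tested genes had a lower log2 fold change, and 93.3% had a lower FPKM in si-NC. CDH3, the gene of P-cadherin, ends 9.82 kb before CDH1 on the same strand and was lower too, at 30.36, 29.53 and 29.55 FPKM in si-NC and 23.58, 25.16 and 24.01 FPKM in si-STRIP2 (log2 fold change -0.30, SE 0.0411, edgeR adjusted p = 1.33e-07).

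Of the catenins, beta-catenin, the product of CTNND1 and plakoglobin (JUP, given with the adherens junction genes) bind the tail of E-cadherin, and alpha-catenin joins through beta-catenin. CTNNB1 (beta-catenin) was at 29.59, 30.57 and 28.71 FPKM in si-NC and at 29.86, 30.92 and 29.93 in si-STRIP2 (log2 fold change 0.027, SE 0.0399, edgeR adjusted p = 0.593), and the groups overlapped. CTNND1, the catenin at the membrane-proximal part of the cadherin tail, had a log2 fold change of 0.14 with overlapping FPKM values (SE 0.0531, edgeR adjusted p = 0.0260). This call was lost in 6 of 15 alternatives, among them those that left out si-NC replicate 3 (edgeR adjusted p = 0.183), si-STRIP2 replicate 2 (0.0848) or si-STRIP2 replicate 3 (0.1). CTNNA1 (alpha-catenin, the actin link) fell, with a log2 fold change of -0.15 (SE 0.0424, edgeR adjusted p = 0.00300), with no overlap of the groups. CDH1 per CTNNB1, a ratio of FPKM values within each library, was 1.19, 1.24 and 1.28 in si-NC and 0.803, 0.777 and 0.820 in si-STRIP2, so the groups were far apart. It was 1 of 5 such ratios, chosen after the values of the single genes were seen, and each of the 5 gave an exact 2-sided permutation p of 0.1 and a Benjamini-Hochberg adjusted p of 0.1, and 3 libraries against 3 cannot give a smaller p.

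Occludin and its scaffold were lower as well. OCLN (ENSG00000197822, chromosome 5, 69492292 to 69558104, plus strand), which encodes the tight junction protein that crosses the membrane 4 times, was at 7.36, 7.98 and 7.40 FPKM in si-NC and at 4.60, 5.10 and 4.73 in si-STRIP2. Its groups were separated by a gap larger than the range of either. The mean fell from 7.58 ± 0.347 to 4.81 ± 0.259 FPKM (SD, n = 3), a log2 fold change of -0.66 (SE 0.0488, 95% confidence interval -0.759 to -0.561, edgeR adjusted p = 1.56e-13), the lowest among the 9 tested genes. Its pseudogene OCLNP1 held 1.52% as many counts.

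TJP1 (ENSG00000104067, chromosome 15, 29699367 to 29968915, minus strand) was at 21.72, 22.98 and 21.95 FPKM in si-NC and at 16.09, 16.13 and 16.31 FPKM in si-STRIP2. All 3 si-STRIP2 libraries were within 0.3 FPKM of each other and below every control. The log2 fold change was -0.46 (SE 0.0393, 95% confidence interval -0.541 to -0.381, edgeR adjusted p = 5.31e-12), or 72.8% of the control level. OCLN per TJP1, another of the ratios chosen after the single values were seen, was 0.339, 0.347 and 0.337 in si-NC. In si-STRIP2 it was 0.286, 0.316 and 0.290, which restates the larger fall of OCLN and is not a separate result.

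F11R (ENSG00000158769, chromosome 1, 160995211 to 161021343, minus strand), whose product binds ZO-1 as claudins and occludin do, was the tested gene not called. Its FPKM was 24.26, 25.84 and 23.69 in si-NC and 23.82, 23.27 and 21.96 in si-STRIP2, with the highest si-STRIP2 library above the lowest control. The log2 fold change was -0.098 (SE 0.0428, 95% confidence interval -0.185 to -0.011, edgeR adjusted p = 0.0508), which does not pass. Over 15 alternative analyses its log2 fold change ranged from -0.13 to -0.07 and it was called lower in 5, among them those without si-NC replicate 3 (edgeR adjusted p = 0.0139) and without si-STRIP2 replicate 1 (edgeR adjusted p = 0.0487). F11R per TJP1, also chosen after the single values were seen, was 1.12, 1.12 and 1.08 in si-NC and 1.48, 1.44 and 1.35 in si-STRIP2. The ratio was higher in every si-STRIP2 library than in any control, which restates the larger fall of TJP1.

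CLDN7 was the most abundant claudin per length. CLDN7 (ENSG00000181885, chromosome 17, 7259903 to 7263983, minus strand) was at 65.82, 68.80 and 66.11 FPKM in si-NC and at 48.64, 50.43 and 49.09 FPKM in si-STRIP2. The groups were compact and far apart. It fell from 66.9 ± 1.64 to 49.4 ± 0.931 FPKM (SD, n = 3), a log2 fold change of -0.44 (SE 0.0404, 95% confidence interval -0.523 to -0.359, edgeR adjusted p = 2.77e-11). The opposite-strand gene ELP5, which overlaps its 3′ end, held 26.1% as many counts and was higher in si-STRIP2 cells (log2 fold change 0.30, SE 0.0574, edgeR adjusted p = 3.29e-05). The 2 spans share only bases 7259903 to 7259940. Whether the counting used strand is not given in the sources used here, so reads that touch those bases may have been assigned to either gene or to neither.

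EPCAM, the partner of claudin-7 (ENSG00000119888, chromosome 2, 47345158 to 47387601, plus strand), was far more abundant, with 212.51, 210.61 and 193.85 FPKM in si-NC and 190.89, 194.03 and 187.04 FPKM in si-STRIP2. The third si-NC library lay among the si-STRIP2 libraries. Its log2 fold change was -0.11 (SE 0.0426, 95% confidence interval -0.199 to -0.026, edgeR adjusted p = 0.0248), and the call was lost in 6 of 15 alternatives, among them the fits without si-NC replicate 1 (edgeR adjusted p = 0.147), si-NC replicate 2 (0.052), si-STRIP2 replicate 1 (0.0788) or si-STRIP2 replicate 3 (0.0904). CLDN7 per EPCAM, also chosen after the single values were seen, was 0.310, 0.327 and 0.341 in si-NC and 0.255, 0.260 and 0.262 in si-STRIP2. That is 79.5% of the control ratio, with no overlap, and restates the larger fall of CLDN7.

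CLDN3 and CLDN4 lie 29.3 kb apart on chromosome 7 on opposite strands and encode sealing claudins that also serve as receptors of a clostridial enterotoxin. CLDN4 (ENSG00000189143, 73799542 to 73832690, plus strand) was at 19.26, 18.26 and 19.70 FPKM in si-NC and at 14.26, 16.81 and 14.52 in si-STRIP2, with the second si-STRIP2 library closest to the controls. The log2 fold change was -0.33 (SE 0.0522, 95% confidence interval -0.439 to -0.227, edgeR adjusted p = 1.76e-06). CLDN3 (ENSG00000165215, 73768997 to 73770270, minus strand) was a low-level gene, at 2.82, 3.04 and 3.11 FPKM in si-NC and at 2.30, 2.38 and 1.64 in si-STRIP2. Those values stand on 67 to 78 counts per control library and 36 to 55 per si-STRIP2 library. Its log2 fold change of -0.50 therefore had a wide 95% confidence interval, -0.861 to -0.137 (SE 0.178, edgeR adjusted p = 0.0176), and the call was lost without si-STRIP2 replicate 3 (log2 fold change -0.36, edgeR adjusted p = 0.121) and under DESeq2 (adjusted p = 0.0578).

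CLDN12 (ENSG00000157224, chromosome 7, 90383721 to 90513402, plus strand) encodes an atypical claudin whose tail lacks the motif that binds ZO scaffolds. It was at 12.92, 13.37 and 12.21 FPKM in si-NC and at 11.53, 11.09 and 11.47 in si-STRIP2, with a narrow gap between the groups. The log2 fold change was -0.18 (SE 0.0449, 95% confidence interval -0.271 to -0.088, edgeR adjusted p = 0.00100). The same-strand gene GTPBP10 overlaps it, held 90.2% as many counts and was lower by a similar amount (log2 fold change -0.15, SE 0.0449, edgeR adjusted p = 0.00434). GTPBP10 ends at base 90391453. Another same-strand gene, CDK14, shares the span from base 90466424 on and was lower too, with overlapping groups (log2 fold change -0.22, SE 0.0845, edgeR adjusted p = 0.0306). The value of CLDN12 is uncertain because of these overlaps, since how reads in shared bases were assigned is not given.

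CLDN1 (ENSG00000163347, chromosome 3, 190305707 to 190322446, minus strand), the claudin of skin and many epithelial barriers, was barely detected, with 12, 15 and 17 counts in si-NC and 5, 3 and 4 in si-STRIP2. It did not pass the filter on low counts. The sums of 44 and 12 counts give 28.7% of the control level relative to the library totals, with an exact 95% interval of 13.8% to 55.2% that covers counting error only (exact 2-sided permutation p over libraries = 0.1, the smallest possible). With no low count filter its log2 fold change was -1.79 (edgeR adjusted p = 0.00110). Every si-STRIP2 library was below every control, all at levels under 0.3 FPKM.

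**Figure D2:**
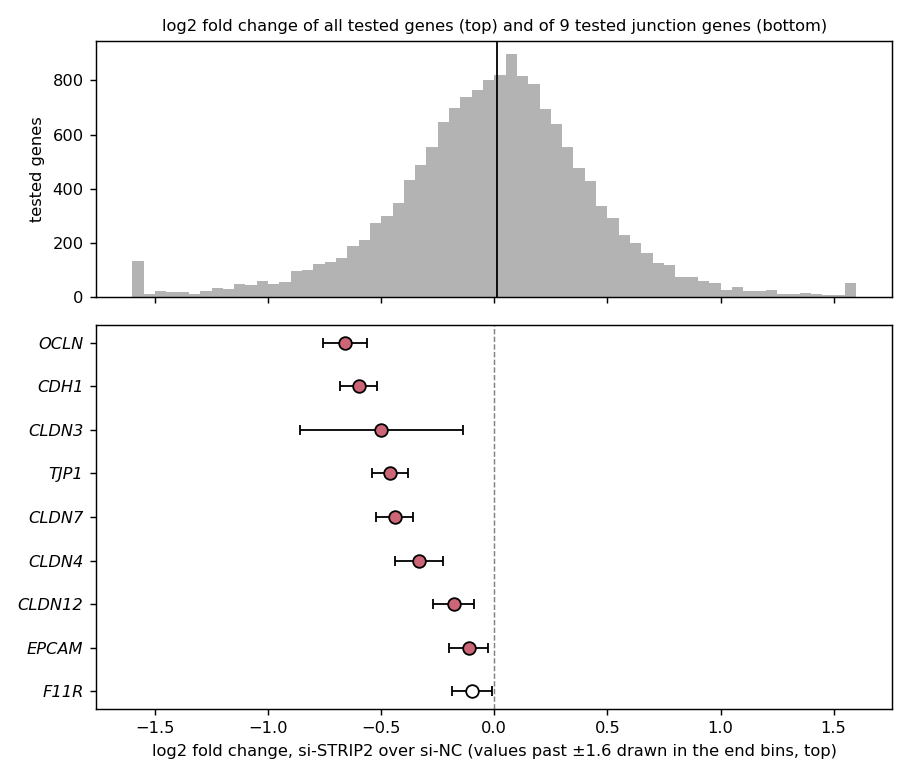
Log2 fold change of si-STRIP2 over si-NC (x axis) for all 15687 tested genes (top, number of genes per bin, the line marks the median of 0.014) and for the 9 tested junction genes (bottom, points with 95% confidence intervals from edgeR). Filled points were called at an adjusted p under 0.05, and the open point is F11R.

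The summed level of the 5 claudins was 100.97, 103.71 and 101.40 FPKM in si-NC and 76.80, 80.76 and 76.78 FPKM in si-STRIP2 (exact 2-sided permutation p = 0.1, the smallest possible). The mix changed little beside that drop. CLDN7 made up 65.6% ± 0.662 of the control sum and 63.2% ± 0.750 of the sum after knockdown (SD of 3 libraries, as for the shares that follow), and CLDN12 12.6% ± 0.466 and 14.6% ± 0.719, with no overlap of the groups for either. CLDN4 held 18.7% ± 0.966 and 19.4% ± 1.21, and CLDN3 2.93% ± 0.137 and 2.69% ± 0.483, and in both the groups overlapped. CLDN1 was 0.215% ± 0.0605 of the sum in si-NC and 0.0771% ± 0.0146 in si-STRIP2. Over the 5 shares, the exact 2-sided permutation p was 0.1 for CLDN1, CLDN7 and CLDN12, 0.6 for CLDN4 and 0.7 for CLDN3, and the lowest Benjamini-Hochberg adjusted p was 0.167.

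**Figure D3:**
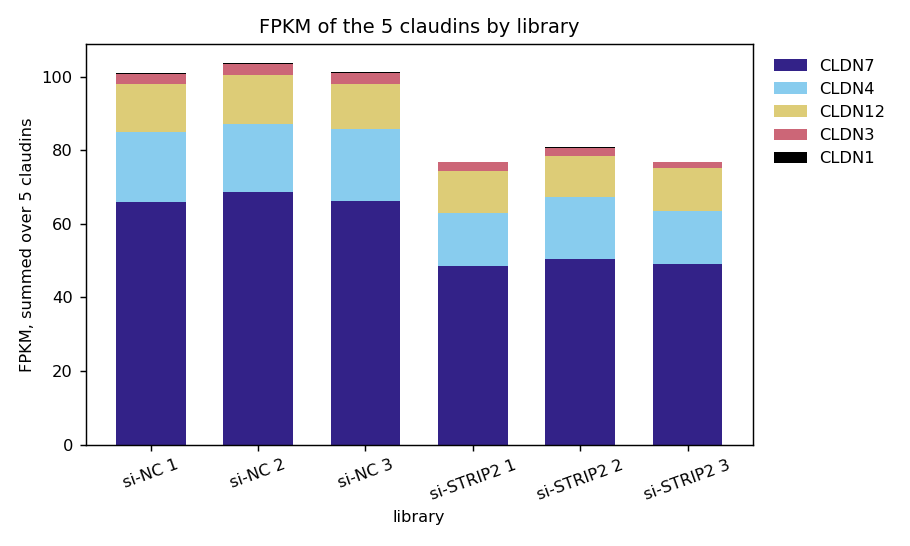
FPKM of CLDN7, CLDN4, CLDN12, CLDN3 and CLDN1 stacked for each library (x axis, 3 si-NC and 3 si-STRIP2 libraries). The sums are 100.97 to 103.71 in si-NC and 76.78 to 80.76 in si-STRIP2, and CLDN7 is the largest part in each.

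In si-NC cells the order of levels per length was EPCAM, CLDN7, CDH1, F11R, TJP1, CLDN4, CLDN12, OCLN, CLDN3 and CLDN1. All neighbours in that order had separate ranges over the 3 control libraries. In si-STRIP2 cells CDH1 lay next to F11R with a narrow gap, at 24.2 ± 0.318 against 23.0 ± 0.956 FPKM (SD, n = 3), whereas the control values were 36.6 and 24.6 FPKM. TJP1 and CLDN4 then overlapped, at 16.09 to 16.31 and 14.26 to 16.81 FPKM. These levels rest on the deposited exonic size of each gene, 1274 bases for CLDN3 and 11315 for TJP1, which joins all annotated exons and can exceed the transcript that is made.

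Claudins outside the 10 were scarce. Of 18 further claudin genes, 3 had enough counts to be tested and 6 had 0 counts in every library. Of those tested, 1 was called, or 33.3% against 54.8% of all tested genes. CLDN15, a pore-forming claudin of the intestine, rose from 1.77, 1.58 and 1.69 to 2.58, 2.00 and 1.99 FPKM (log2 fold change 0.38, SE 0.138, edgeR adjusted p = 0.0207), and its call was lost without si-NC replicate 2 (edgeR adjusted p = 0.0728), on leaving out si-STRIP2 replicate 1 (0.182, also edgeR) and under DESeq2 (adjusted p = 0.0765).

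All 8 other tight junction membrane genes that could be tested were called, 7 lower and 1 higher, where 54.8% of all tested genes were called. Their median log2 fold change was -0.48. Over the 15 alternatives, 6 to 7 were called lower and 1 to 2 higher. The fall of LSR was small, and its groups overlapped (log2 fold change -0.13, SE 0.0450, edgeR adjusted p = 0.0145). CXADR, the coxsackievirus and adenovirus receptor, was at 17.42, 17.86 and 16.67 FPKM in si-NC and at 13.14, 11.83 and 13.66 FPKM in si-STRIP2 (log2 fold change -0.43, SE 0.0479, edgeR adjusted p = 2.21e-09). CRB3, a polarity protein of the apical membrane, had a log2 fold change of -0.62 (SE 0.103), and ILDR2, of the family that marks contacts of 3 cells, of -0.96 (SE 0.164) at under 0.5 FPKM, with edgeR adjusted p-values of 4.72e-06 and 7.85e-06. The exception was MARVELD3, a relative of occludin, which rose from 2.33 ± 0.256 to 3.70 ± 0.220 FPKM (SD, n = 3; log2 fold change 0.67, SE 0.0821, edgeR adjusted p = 1.89e-08). Opposite-strand genes overlapping CRB3 and MARVELD3 held 725% (SLC25A23) and 173% (PHLPP2) as many counts as they did.

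Of 22 tested cytoplasmic plaque and polarity genes, 5 were called higher and 5 lower, with a median log2 fold change of 0.004. That is 45.5% called, against 54.8% of all tested genes. AMOTL2, an angiomotin-like scaffold, fell from 5.04 ± 0.179 to 3.08 ± 0.263 FPKM (log2 fold change -0.71, SE 0.0703, edgeR adjusted p = 1.85e-10), and PARD3, a polarity scaffold, from 13.6 ± 0.780 to 9.89 ± 0.465 FPKM (log2 fold change -0.47, SE 0.0477, edgeR adjusted p = 3.25e-10; SD, n = 3 for both). SYMPK, which also acts in messenger RNA 3′ end formation, had a log2 fold change of 0.39 (SE 0.0421, edgeR adjusted p = 1.05e-09). CGN, the gene of cingulin, had a log2 fold change of 0.43 (SE 0.0697, edgeR adjusted p = 3.27e-06).

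Of 13 tested adherens junction genes other than CDH1, 4 were called higher and 5 lower, or 69.2% called against 54.8% of all tested genes. VCL, the gene of vinculin, which reinforces the link from catenins to actin, was at 15.11, 15.27 and 15.04 FPKM in si-NC and at 20.94, 21.79 and 20.94 FPKM in si-STRIP2 (log2 fold change 0.48, SE 0.0397, edgeR adjusted p = 2.01e-12), while the opposite-strand gene AP3M1 held 55.0% as many counts. JUP (plakoglobin, shared with desmosomes) was higher by 0.33 (SE 0.0425) and NECTIN2, an adhesion molecule of the immunoglobulin family, had a log2 fold change of -0.37 (SE 0.0511), with edgeR adjusted p-values of 4.24e-08 and 1.90e-07.

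In desmosomes, the contacts that anchor keratin filaments, the cadherins DSG2, DSC2 and DSC3 fell and the plakin EVPL rose, while the cadherin DSG3 was at most 0.05 FPKM in any library and was not tested. Of 10 tested genes, 4 were called lower and 2 higher, or 60.0% called against 54.8% of all tested genes. DSG2, the main desmoglein of simple epithelia, was at 63.13, 67.08 and 62.71 FPKM in si-NC and at 47.23, 47.85 and 47.11 FPKM in si-STRIP2, a change close to that of CLDN7 (log2 fold change -0.44, SE 0.0411, edgeR adjusted p = 3.71e-11). The desmocollins DSC2 and DSC3 had log2 fold changes of -0.52 (SE 0.0411) and -0.76 (SE 0.0619), with edgeR adjusted p-values of 1.01e-12 and 1.52e-12. EVPL (envoplakin) was higher, from 4.11 ± 0.450 to 5.53 ± 0.420 FPKM (SD, n = 3; log2 fold change 0.43, SE 0.0687, edgeR adjusted p = 2.55e-06). Over the claudin, membrane, plaque, adherens and desmosome lists together, 21 of 56 tested genes were called lower and 13 higher, or 60.7% called against 54.8% of all tested genes, with a median log2 fold change of -0.11.

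**Figure D4:**
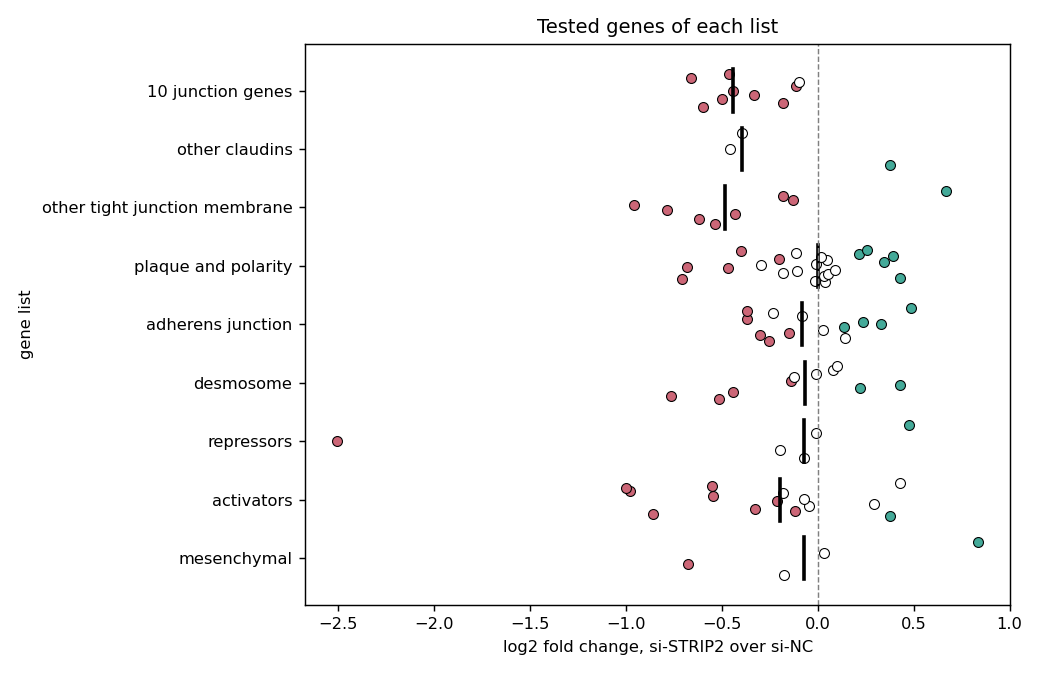
Log2 fold change of si-STRIP2 over si-NC (x axis) for each tested gene of the 10 junction genes and of 8 further lists (y axis). Red points were called lower and green points higher by edgeR at an adjusted p under 0.05, open points were not called, and black lines mark the median of each list, -0.44 for the junction genes and 0.004 for plaque and polarity genes.

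Of the 11 repressors of epithelial genes in the list, only TCF3, which encodes E proteins, was above 3.11 FPKM in any library, at 13.97, 13.55 and 14.71 FPKM in si-NC and 14.27, 13.82 and 13.93 FPKM in si-STRIP2. It was named after its values were seen, and its groups overlapped (log2 fold change -0.01, SE 0.0446, edgeR adjusted p = 0.865). SNAI2, at most 0.52 FPKM in any library, had 37, 28 and 26 counts in si-NC and 9, 3 and 3 in si-STRIP2. It was called lower (log2 fold change -2.50, SE 0.366, edgeR adjusted p = 5.18e-07), at 17.3% of the control relative to the library totals. The exact 95% interval for counting error was 9.32% to 30.1%. The part of SNAI2 in the level of CDH1 was not tested. SNAI1, at 3.05, 3.08 and 3.11 FPKM in si-NC and 2.75, 2.95 and 2.38 FPKM in si-STRIP2, was not called (log2 fold change -0.19, SE 0.141, edgeR adjusted p = 0.246). ZEB1 was at 0.30, 0.41 and 0.35 FPKM in si-NC and 0.50, 0.44 and 0.54 in si-STRIP2 (log2 fold change 0.48, SE 0.168, edgeR adjusted p = 0.0160). The overlapping antisense gene ZEB1-AS1 held 208% as many counts, and the call was lost without si-NC replicate 1 (edgeR adjusted p = 0.109), on leaving out si-STRIP2 replicate 3 (0.082, also edgeR) and under DESeq2 (adjusted p = 0.0666). ZEB2 had at most 0.01 FPKM in any library. Of the list, 5 were tested, 1 was called lower and 1 higher, or 40.0% called against 54.8% of all tested genes.

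Activators of epithelial genes were called lower in 8 of 14 tested cases and called higher in 1, or 64.3% called against 54.8% of all tested genes, with a median log2 fold change of -0.20. KLF5, a zinc finger factor of the intestinal crypt, was at 27.72, 29.38 and 28.26 FPKM in si-NC and at 14.16, 15.11 and 13.45 in si-STRIP2, a 2.002-fold lower level (95% confidence interval of the log2 fold change -1.097 to -0.906, SE 0.0470, edgeR adjusted p = 1.55e-18). KLF4, its relative of differentiated epithelium, was at 51.61, 51.14 and 45.29 FPKM and then at 24.68, 25.60 and 25.16 FPKM (log2 fold change -0.98, SE 0.0464, edgeR adjusted p = 2.10e-18). EHF, an epithelial ETS factor, had a log2 fold change of -0.86 (SE 0.0448) and ESRP1, which directs epithelial splicing, of -0.33 (SE 0.0402), with edgeR adjusted p-values of 2.50e-17 and 1.74e-08. The activator called higher was CDX2 (log2 fold change 0.38, SE 0.105, edgeR adjusted p = 0.00285). GRHL2, ESRP2, HNF4A, OVOL2 and FOXA1 were not called. The falls of KLF5, KLF4, EHF and ESRP1 stand beside those of the junction genes, and their part in them was not tested.

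The sheddases ADAM17, which cuts EPCAM, and ADAM10, which cuts E-cadherin, fell. ADAM17 was at 6.52, 6.97 and 6.44 FPKM in si-NC and at 4.13, 4.16 and 4.34 FPKM in si-STRIP2 (log2 fold change -0.66, SE 0.0449, edgeR adjusted p = 1.83e-14), and its groups were well separated. ADAM10 was at 18.55, 20.28 and 17.92 FPKM in si-NC and at 14.39, 14.62 and 14.98 FPKM in si-STRIP2 (log2 fold change -0.37, SE 0.0425, edgeR adjusted p = 4.34e-09), also with no overlap. The serine proteases ST14 and PRSS8, named after their values were seen, were called higher, by smaller amounts. ST14 (matriptase) had a log2 fold change of 0.17 (SE 0.0497, edgeR adjusted p = 0.00412) and lost its call on leaving out si-NC replicate 3 (0.0539) or si-STRIP2 replicate 2 (0.0531). PRSS8 (prostasin) had one of 0.18 (SE 0.0785, edgeR adjusted p = 0.0493), a call lost in 11 of 15 alternatives, with adjusted p-values from 0.0116 to 0.142 over all 15, and in every fit that left out a library other than si-STRIP2 replicate 1. Genes overlapping ADAM17, mainly the opposite-strand IAH1, held 18.6% as many counts.

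Mesenchymal genes did not move as a block. VIM (vimentin) was at 0.53, 0.59 and 0.46 FPKM in si-NC and at 1.02, 0.96 and 0.86 in si-STRIP2 (log2 fold change 0.84, SE 0.162, edgeR adjusted p = 4.56e-05), with an opposite-strand VIM-AS1 of 15.1% as many counts, and FN1 (fibronectin) fell from 1.48 ± 0.159 to 0.923 ± 0.0643 FPKM (SD, n = 3; log2 fold change -0.68, SE 0.0816, edgeR adjusted p = 1.25e-08). CDH2, the gene of N-cadherin, was at most 0.03 FPKM in any library. The summed level of the 7 genes was 4.13 to 4.38 FPKM in si-NC and 3.71 to 4.22 FPKM in si-STRIP2.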

How the data were processed

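RNA-seq of 6 HCT116 libraries, 3 per group, was used as deposited. Per the labels' protocols, TRIzol extracts were enriched for poly(A) RNA and made into libraries with a directional kit. The submitters' processing notes name cutadapt 1.9.1, HISAT2 2.2.1, HTSeq 0.6.1 and the build GRCh38.p13, with no roles. The annotation release, and whether counting used strand, are not given in the sources used here. The deposited table holds a raw count per gene and library, per the file headers. It also holds the authors' FPKM, which equals count per exonic size and column total to within 0.005. Coordinates are those of the table.

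Counts were tested in R 4.3.3 with edgeR 4.0.16 (filterByExpr with minimum count 10, TMM, quasi-likelihood F test, group as the only term), 2-sided, with Benjamini-Hochberg adjustment over all 15687 genes tested. Each SE was derived from the fold change and its F statistic. The common biological coefficient of variation was 0.0388. DESeq2 1.42.0, limma 3.58.1 on log2(FPKM + 1) and log2(FPKM + 0.1), other scalings, filters, a replicate block and leaving out each library were alternatives. Libraries of a group differed by more than sampling noise (chi-square per degree of freedom 2.05 to 15.1). Single values per library were compared by exact permutation tests. The edgeR fit was tested on simulated counts with known changes.

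The 10 genes and all lists were chosen with earlier results of these data known. Genes named from the wider lists are up to 4 called genes with the smallest adjusted p in each, plus SNAI1, ZEB1, ZEB2, CTNNB1, CTNNA1, CTNND1, CDH2 and VIM. TCF3, DSG3, LSR, CDX2, ST14, PRSS8 and the activators not called were added after their values were seen. Some genes that this rule names are not reported here. Overlapping genes named beside a gene are those sharing its span in the table. The low-level claudins are limited by their counts: CLDN1 had at most 17 counts in a library.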

Additional observations from a re-analysis of the deposited data

How the results depend on the processing

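The number of junction genes called lower was 8 and ranged from 7 to 9 over 15 alternatives, with 0 called higher in each. CDH1, OCLN, CLDN4, CLDN7, CLDN12 and TJP1 were called lower in all 15, with CDH1 between -0.63 and -0.58 and OCLN between -0.70 and -0.56 on the log2 scale. CLDN3, EPCAM and F11R changed their call in 2, 6 and 5 alternatives, and none of the 9 changed direction. CLDN1 was called where no low count filter was used and in 4 of the 6 fits without a library, which test it because the filter then asks for fewer libraries. It is part of the number called lower in those fits, so the same number can stand for different genes. Without si-NC replicate 1, EPCAM lost its call and CLDN1 was called. The other junction genes called ranged from 18 to 23 lower and from 9 to 14 higher, and all genes called from 6913 to 8604. The share of CLDN3 in the claudin sum, a difference of -0.238 percentage points (si-STRIP2 minus si-NC), was 0.0405 points without si-STRIP2 replicate 3, and over all fits without a library it ranged from -0.389 to 0.0405, and the cause was not tested. The same difference for CLDN4, 0.728, ranged from 0.0362 (without si-STRIP2 replicate 2) to 1.16. The TCF3 log2 fold change, never called, was 0.019 without si-NC replicate 3 and ranged from -0.045 to 0.019 over the fits without a library, and the cause was not tested. No sign was seen that the numbers shared by the groups pair the libraries, as the correlation of same-numbered deviations was -0.0858, -0.0133 and -0.0718. With 3 libraries per group, these values cannot show whether same-numbered libraries were handled together. With the replicate block, 8 junction genes and 8293 of all genes were called, and no library correlated best with its own number. Depth limits CLDN1 and CLDN3, and FPKM levels between genes depend on the exonic size.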
